A study of Mus musculus with 2 samples.

Results

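Mast cell genes were examined in single-cell RNA sequencing (scRNA-seq) of leukocytes that had entered AT3 tumors, a mouse breast cancer line grown in the mammary fat pad. The 10 genes were the granule proteases Mcpt1, Mcpt2, Mcpt4, Cma1, Tpsb2 and Cpa3, the serotonin-synthesis enzyme Tph1 and the surface receptors Kit, Fcer1a and Ms4a2, out of 32285 genes in the count matrices. They were chosen by their UMI counts in these libraries, where a small group of cells carried them at high level, so the levels that mark those cells are a description and carry no test. One library, WT, came from Pgd fl/fl mice, which carry the floxed gene of 6-phosphogluconate dehydrogenase (6PGD) without a recombinase. The other, 6PGDKO, came from Pgd fl/fl LysM Cre mice, in which Cre sits in the lysozyme 2 locus of the B6.129P2-Lyz2tm1(cre)Ifo/J strain and is active in myeloid cells that use it. Both groups were untreated females of 6 to 12 weeks, and suspensions from 10 mice a genotype were pooled at day 30, so each genotype was 1 library and no animal could be told from another. The labels name CD45+ cells in 1 sentence of the protocol and live CD11b+ cells in another, and the study's methods name live CD45+ cells. With 1 library a genotype, no test between genotypes was possible, and every interval below covers counting error only.

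Mast cells arise from bone marrow progenitors, mature in tissues under Kit signalling, and store proteases bound to serglycin in cytoplasmic granules. The chymases encoded by Mcpt1, Mcpt2, Mcpt4 and Cma1 and the tryptase encoded by Tpsb2 are serine proteases, and Cpa3 encodes the mast cell carboxypeptidase. Mcpt1 and Mcpt2 are known as proteases of mucosal mast cells, whereas Mcpt4, Cma1, Tpsb2 and Cpa3 are known from connective tissue mast cells. Cross-linking of IgE on the high-affinity receptor, of which Fcer1a encodes the binding alpha chain and Ms4a2 the amplifying beta chain, triggers release of the granules. Basophils share the receptor chains and Cpa3 with mast cells but are known for Mcpt8 and Prss34 instead of the chymases.

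After the filters on genes and mitochondrial share, 3565 of 3728 WT barcodes and 2798 of 3014 6PGDKO barcodes were kept, with 26959415 and 28447905 UMIs and medians of 5554 and 7926 UMIs a barcode. No barcode sequence was present in both libraries. Pgd, the targeted gene, had 1544 UMIs in WT and 844 in 6PGDKO, and Lyz2, whose locus holds the Cre, had 34507 and 414, so both genes were lower in the library labelled 6PGDKO.

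A barcode was called high when it held at least 20 UMIs of the 10 genes and at least 4 of the genes. By this rule 16 of 2798 6PGDKO barcodes were high, which is 0.572% with an exact binomial 95% interval of 0.327 to 0.927%. In WT, 0 of 3565 barcodes were high, which allows a share of up to 0.0842% at a limit of 3 counts and has an exact upper bound of 0.103%. The groups of barcodes were far apart on the values used by the rule. The lowest sum among the high barcodes was 74 UMIs, whereas the highest sum among the others was 19 in WT and 16 in 6PGDKO, both made of Kit alone. No other barcode held more than 2 of the genes in WT or 3 in 6PGDKO. In the high barcodes 3 held 7 of the genes, 6 held 8, 4 held 9 and 3 held all 10. WT had more B cells than 6PGDKO, 570 barcodes against 36, and without the B cell clusters the share of high barcodes was 0.579% in 6PGDKO and 0 of 2995 in WT. A difference between genotypes and a difference between the animals or tumors that happened to be pooled cannot be told apart here.

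**Figure D1:**
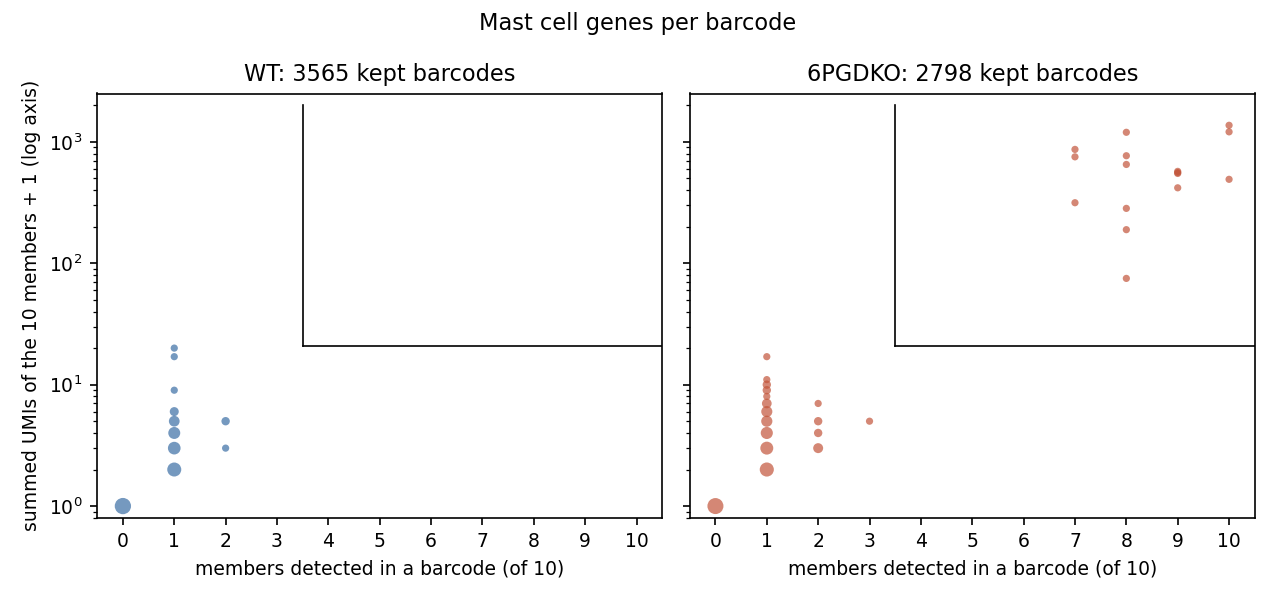
Each point is a combination of the number of the 10 mast cell genes detected in a kept barcode (x axis) and their summed UMIs plus 1 (y axis, log scale), with point size growing with the number of barcodes; WT is at left and 6PGDKO at right, and the lines bound the region called high. The 16 points of 6PGDKO in that region lie at sums of 74 and above with 7 to 10 genes, and the region is empty in WT.

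Clustering of both libraries together at resolution 0.8 placed the 16 high barcodes, and no other barcode, in 1 cluster that was named as mast cells from 15 detected markers, the 10 genes among them, with 0 WT barcodes in it. At resolution 1.6 no cluster was named as mast cells, and the 16 lay in a cluster that carried the T cell name, with 86 barcodes from WT and 82 from 6PGDKO. The 16 barcodes are therefore described by the counts of the 10 genes, and classes of the other cells are those at resolution 0.8. The class labelled epithelial tumor cells was named from general epithelial markers alone, and whether its cells came from the tumor was not tested.

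The 10 genes gave 10244 UMIs in the 16 high barcodes, from 74 to 1367 a barcode with a median of 563.5. They made up 2.99 to 22.4% of all UMIs of a high barcode, with a median of 8.21%, and at most 0.133% of the UMIs of any other 6PGDKO barcode. UMIs count molecules and were not divided by transcript length, so the values below compare each gene between cells rather than genes with each other.

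Mcpt2 was detected in 15 of the 16 high barcodes, with a lowest value of 0, a median of 251 and a highest of 871 UMIs. Mcpt1 was detected in 9 of the 16, with a median of 9.5 and a highest value of 549 UMIs. The other 7 had no Mcpt1 UMI at all, although 6 of them held 10 to 679 UMIs of its neighbour Mcpt2. Mcpt4 and Cma1 are the chymases known from connective tissue mast cells. Mcpt4 was present in all 16 barcodes at 11 to 258 UMIs with a median of 59, and Cma1 in 15 of 16 at 0 to 364 with the same median of 59. No pair of the 4 chymase genes was mutually exclusive, since 8 barcodes held both Mcpt1 and Cma1 and 15 held both Mcpt2 and Mcpt4.

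The tryptase gene Tpsb2 was present in all 16 barcodes at 5 to 154 UMIs with a median of 54.5. Cpa3 was present in all 16 at 5 to 62 UMIs with a median of 27.5. Tph1, which encodes the rate-limiting enzyme of serotonin synthesis outside the nervous system, was present in all 16 at 3 to 30 UMIs with a median of 14. These 3 genes and Mcpt4 were the members detected in every high barcode.

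The receptor genes were seen at a few UMIs a barcode. Kit, the receptor of stem cell factor, had 0 to 8 UMIs with a median of 4.5 in the high barcodes and was detected in 14 of 16. Ms4a2 had 0 to 5 UMIs with a median of 2 and was also detected in 14 of 16. Fcer1a was detected in 4 of 16, and 13 of its 21 UMIs lay in a single barcode. The partner chain Ms4a2 was thus seen in 10 high barcodes in which Fcer1a was not.

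**Figure D2:**
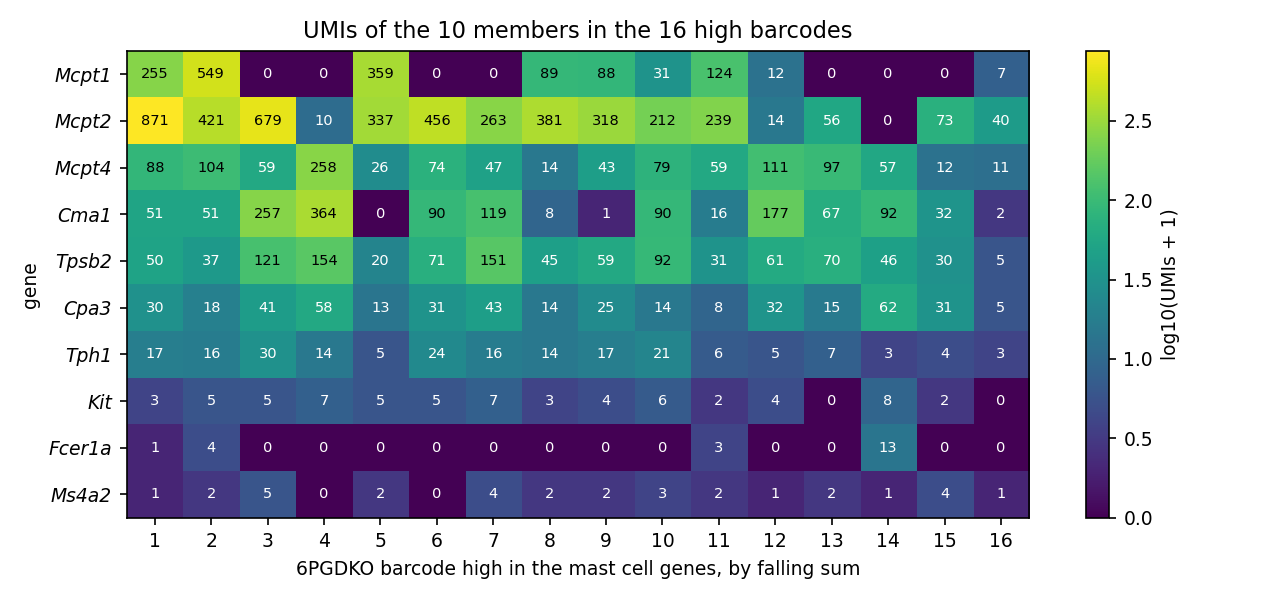
Number of UMIs of each of the 10 genes (rows) in each of the 16 high 6PGDKO barcodes (columns, ordered by falling sum), with color giving log10(UMIs + 1). Mcpt4, Tpsb2, Cpa3 and Tph1 have a UMI in every column, Mcpt1 is at 0 in 7 columns, and column 14 has no Mcpt1 or Mcpt2 but the highest Cpa3, Kit and Fcer1a values.

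All 10 genes have a position in the RefSeq table of GRCm38.p6, the assembly that mm10 stands for in the submitters' processing notes. The 4 chymase genes lie on chromosome 14, with Cma1 at 55941451-55944675, Mcpt1 at 56017964-56020391, Mcpt2 at 56021584-56044635 and Mcpt4 at 56059744-56062310. Tpsb2 lies at 25366308-25368096 of chromosome 17, Cpa3 at 20215616-20242209 of chromosome 3 and Tph1 at 46644641-46672537 of chromosome 7. The receptor genes are dispersed, with Kit at 75574987-75656722 of chromosome 5, Fcer1a at 173221269-173227232 of chromosome 1 and Ms4a2 at 11615517-11623790 of chromosome 19.

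Mcpt1 and Mcpt4 are close relatives that parted in these cells, with Mcpt1 in 9 and Mcpt4 in 16 of the 16 barcodes, so the DNA before their starts is shown with that of Cma1 and Cpa3, which were detected in 15 and 16. The sequences are from RefSeq on GRCm38.p6, are written 5′ to 3′ on the strand of the gene, end at the base before the gene, and have in capitals every match to a GATA motif. The motif was searched on both strands as AGATAA or AGATAG or TGATAA or TGATAG, the letters that GATA factors such as Gata2 are known to bind.
Mcpt1, chr14:56017714-56017963, plus strand: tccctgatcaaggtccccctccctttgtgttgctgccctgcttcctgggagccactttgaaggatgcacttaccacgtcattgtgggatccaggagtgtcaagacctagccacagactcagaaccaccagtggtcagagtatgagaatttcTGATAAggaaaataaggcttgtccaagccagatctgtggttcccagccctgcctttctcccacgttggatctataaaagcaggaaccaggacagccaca
Mcpt4, chr14:56062311-56062560, minus strand: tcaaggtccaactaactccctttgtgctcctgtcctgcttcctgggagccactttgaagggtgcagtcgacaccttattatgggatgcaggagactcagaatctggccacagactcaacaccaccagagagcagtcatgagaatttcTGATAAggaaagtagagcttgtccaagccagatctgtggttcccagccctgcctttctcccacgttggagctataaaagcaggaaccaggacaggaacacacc
Cma1, chr14:55944676-55944925, minus strand: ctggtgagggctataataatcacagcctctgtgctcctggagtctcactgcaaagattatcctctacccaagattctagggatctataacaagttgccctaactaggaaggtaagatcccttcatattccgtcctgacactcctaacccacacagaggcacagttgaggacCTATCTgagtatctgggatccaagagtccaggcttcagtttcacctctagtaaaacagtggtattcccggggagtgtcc
Cpa3, chr3:20242210-20242431, minus strand: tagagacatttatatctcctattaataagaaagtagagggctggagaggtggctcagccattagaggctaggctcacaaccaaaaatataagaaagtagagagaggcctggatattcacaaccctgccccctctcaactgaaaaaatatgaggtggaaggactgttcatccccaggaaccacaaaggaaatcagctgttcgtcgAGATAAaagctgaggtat

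The windows of Mcpt1 and Mcpt4 were identical at 207 of 254 aligned columns, 81.5%, with a longest shared run of 53 bases, and each held a single match, TGATAA, at 99 and 103 bases before the gene. Cma1 shared 42.3% of columns with Mcpt1, beside 44.3% with Cpa3, and its match lay on the other strand. Mcpt1 shared 40.2% with Cpa3, so the value for Cma1 and Mcpt1 was no higher than that for Cma1 and Cpa3. A RefSeq promoter was found for 8 of the 10 genes, and 7 of the 8, all but Kit, held at least 1 match. Tph1 and Kit had 2 promoters each, and only the window of the most upstream start was read. Of all 32851 promoter windows of 250 bases in the table, 26.5% held at least 1 match and 6.40% held 2 or more. Those windows were uncut, with more than 1 for some genes. The member windows had 179 to 250 bases, and a match is a description of the letters, not of a bound site. The Mcpt1 and Mcpt4 windows thus carried the same letters at nearly the same distance, while the genes differed in how many high barcodes they were detected in.

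Near-identical transcripts could share reads, so words of 31 bases were compared in the GENCODE vM39 transcripts. Mcpt1 shared 6.71% of its words with other genes, Mcpt2 7.37% and Mcpt4 16.4%, the last mostly with Cma2. Tpsb2 shared 0.369%, all with its neighbour Tpsab1. Cma1 shared 9.17%, all with Gm48934, and therefore none with a granzyme gene. Reads from shared stretches cannot be assigned with certainty, and Cma2 itself had 0 UMIs in both libraries.

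The 16 barcodes differed in their mixture of proteases. Levels are given here per 10000 UMIs of a barcode. In the 9 barcodes with Mcpt1 the median Mcpt2 level was 657 with a range of 16.6 to 1086, and in the 7 without Mcpt1 it was 127 with a range of 0 to 578. Cma1 had the opposite order, with medians of 44.0 and 152. Tpsb2 had medians of 68.8 and 121, and Cpa3 of 29.8 and 45.8. The ranges overlapped for each of these genes, and Mcpt4 and Tph1 had similar medians in both sets, 110 and 93.8 for Mcpt4 and 18 and 15.8 for Tph1. The split on Mcpt1 was chosen after its values were seen.

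Across the 16 barcodes, on the scale of log2(UMIs per 10000 + 1), Pearson's r was 0.54 between Mcpt1 and Mcpt2 and −0.60 between Mcpt1 and Cma1. It was 0.70 between Cma1 and Tpsb2, 0.62 between Mcpt2 and Tph1 and −0.76 between Mcpt2 and Cpa3. Spearman's rho was 0.72, −0.66, 0.75, 0.69 and −0.50 for the same pairs in that order. These are descriptions over 16 cells of 1 library, and shares of the same total are tied to each other. Genes known from mucosal and from connective tissue mast cells were thus present in the same barcodes, in proportions that differed from barcode to barcode.

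Barcode 14 stood apart from the other 15. It had no Mcpt1 and no Mcpt2 UMI, the highest Cpa3 (62 UMIs), Kit (8) and Fcer1a (13), and 92 UMIs of Cma1. It also held 17 of the 24 Mrgprb1 UMIs and 4 of the 7 Mrgprb2 UMIs of the library, genes of a receptor family that includes the receptor for basic secretagogues on connective tissue mast cells. It had 2939 UMIs in all, and only barcode 16 had fewer. Barcode 4 had 364 UMIs of Cma1 and 258 of Mcpt4, the highest of both, beside 10 of Mcpt2 and 0 of Mcpt1.

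Outside the high barcodes the protease genes were close to absent. Mcpt1 had 0 UMIs in WT and 3 in 6PGDKO, Mcpt2 had 11 and 9, Mcpt4 had 4 and 4, Tpsb2 had 3 and 4, and Cpa3 had 3 and 0. No barcode held more than 1 UMI of any of these 5 genes. Together they gave 21 UMIs in 21 WT barcodes and 20 UMIs in 19 6PGDKO barcodes, which is 0.779 CPM (UMIs per 1000000 UMIs; 95% Poisson interval 0.482 to 1.19) and 0.706 CPM (0.431 to 1.09). The log2 ratio of 6PGDKO to WT was −0.14 (−1.10 to 0.81), so the scattered UMIs were not distinguishable between a library with 16 high barcodes and a library with none. The level was 0.00104% of that in the high barcodes for WT and 0.000944% for 6PGDKO.

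The composition of these 5 genes is given as a description. They were picked after their values were seen, and Cma1 and Tph1 were left out. Mcpt2 made up 51.4% of their UMIs in the high barcodes, 52.4% (exact binomial interval 29.8 to 74.3%) in the WT barcodes and 45% (23.1 to 68.5%) in the other 6PGDKO barcodes. Mcpt4 made up 13.4, 19.0 and 20%, and Tpsb2 12.3, 14.3 and 20%. Mcpt1 was 17.8% in the high barcodes, 15% (3.21 to 37.9%) in the other 6PGDKO barcodes and 0% with an upper bound of 16.1% in WT. Cpa3 was 5.17%, 0% (upper bound 16.8%) and 14.3% (3.05 to 36.3%) in the order high, other 6PGDKO and WT. With 20 and 21 UMIs the intervals were wide, and only that of Mcpt1 in WT did not reach the share in the high barcodes. In the high barcodes, 36.3% of the Mcpt1 UMIs lay in 1 barcode. The suspensions of the genotypes were pooled before capture, and the source of these UMIs was not tested.

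Tph1 and the IgE receptor genes were equally rare elsewhere. Tph1 had 1 UMI in WT and 5 in 4 barcodes of 6PGDKO outside the high barcodes. Ms4a2 had 0 in both libraries, with exact Poisson upper bounds of 0.137 CPM in WT and 0.130 CPM in 6PGDKO. Fcer1a had 0 in 6PGDKO and 3 in WT, and the 3 lay in a single barcode. That WT barcode also held 1 Cpa3 UMI, 2 of Mcpt8, 1 of Prss34, 7 of Cd200r3, 19 of Gata2 and 24 of Hdc, genes that basophils express, beside 108 UMIs of the macrophage gene C1qa. It had 16996 UMIs and lay in a macrophage cluster, and it held none of the 4 chymase genes, Tpsb2 or Kit.

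**Figure D3:**
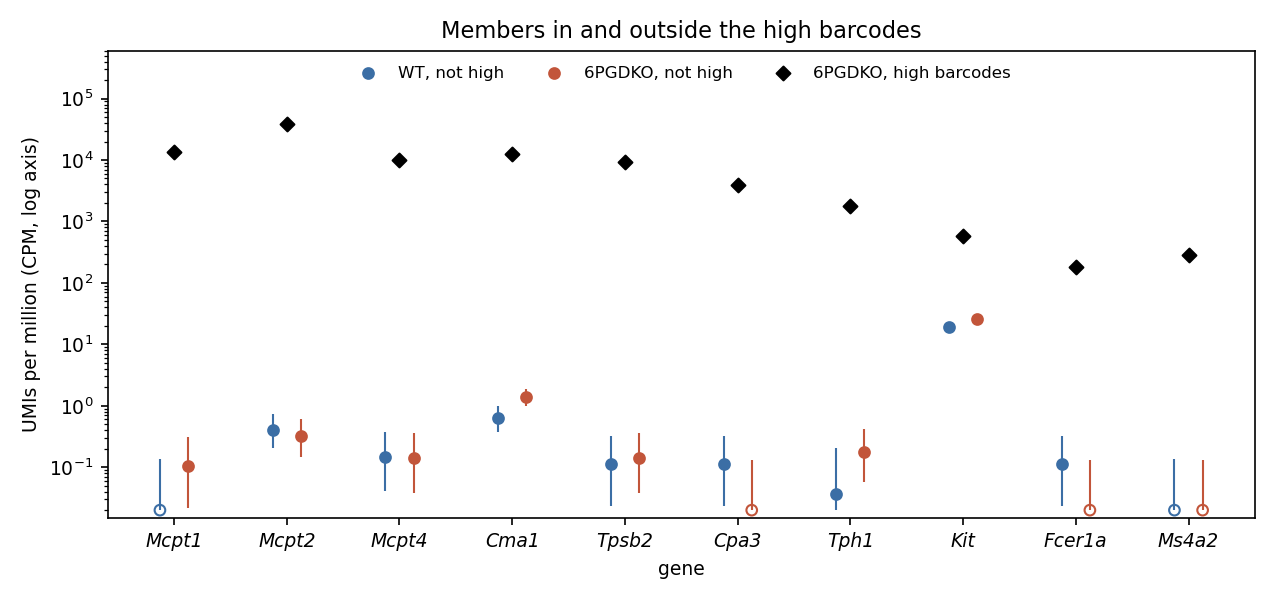
Level of each gene in CPM (log axis) in barcodes that were not high in WT (blue) and 6PGDKO (red), with 95% Poisson intervals, and in the 16 high 6PGDKO barcodes (black diamonds); open circles at the lower edge are genes with 0 UMIs. Outside the high barcodes only Kit exceeds 10 CPM and only Cma1 otherwise exceeds 0.5 CPM, whereas all diamonds lie above 100 CPM.

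Cma1 behaved differently from the other proteases. Outside the high barcodes it gave 17 UMIs in 9 WT barcodes and 39 UMIs in 19 6PGDKO barcodes, up to 4 and 9 in a barcode. Of these, 12 UMIs in WT and 22 in 6PGDKO lay in the cluster of NK cells and innate lymphoid cells (ILCs). Its level there was 15.7 CPM (8.10 to 27.4) in WT and 26.9 CPM (16.9 to 40.7) in 6PGDKO, against 0.191 CPM (0.0620 to 0.445) and 0.618 CPM (0.360 to 0.989) in all other barcodes. The intervals did not meet in either library. The log2 ratio of 6PGDKO to WT within the NK and ILC cluster was 0.78 (−0.30 to 1.93), so no difference between the libraries was resolved.

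Cma1 was detected in 5 of 98 NK and ILC barcodes in WT and 11 of 121 in 6PGDKO. The medians of these classes were 7090 and 6194 UMIs, and the T cell class, which should lack the gene, had 0 Cma1 UMIs in 1178 WT barcodes at a median of 4502 UMIs and 2 in 697 6PGDKO barcodes at a median of 4648. That class leaves out the clusters led by Cd8b1 and Ccl5 and by Tcrg-C2 and Xcl1, which had T cell markers but remained unnamed because a marker of another class was among their leading genes. With both included, Cma1 had 2 UMIs in 1687 WT barcodes, both in the Cd8b1 cluster, and 2 in 1063 6PGDKO barcodes, 0.207 CPM (0.0251 to 0.749) and 0.288 CPM (0.0348 to 1.04). After each barcode was thinned to 2000 UMIs, Cma1 was seen in 4.12% of the WT and 4.31% of the 6PGDKO NK and ILC barcodes and in none of the barcodes of the T cell class as named. The 5 and 11 Cma1-positive barcodes held NK genes, at medians of 3364 and 3769 UMIs, beside 7407 and 6551 in the barcodes of the same cluster without Cma1. Gzma, a granzyme of cytotoxic cells, was detected in 5 of 5 and 10 of 11 of them, beside 34.4% and 44.5% of the barcodes without Cma1. Ncr1, an activating receptor of NK cells and ILCs, was detected in 5 of 5 and 9 of 11, beside 42 of 93 and 57 of 110. Klre1 was detected in 5 of 5 and 11 of 11, beside 61 of 93 and 64 of 110. Eomes was detected in 2 of 5 and 7 of 11, beside 21 of 93 and 34 of 110. The contrast was smaller or uneven for Klrd1, in 5 of 5 and 10 of 11 beside 83 of 93 and 97 of 110. So it was for Klrb1c, in 5 of 5 and 8 of 11 beside 58 of 93 and 80 of 110. Gzmb was in 4 of 5 and 10 of 11, beside 70 of 93 and 72 of 110. Gzmc, another granzyme, was detected in 0 of 5 and 1 of 11, beside 48.4% and 46.4%. The Cma1-positive barcodes held no UMI of another mast cell gene except Kit in 1 barcode. A further 9 Cma1 UMIs lay in a single monocyte-cluster barcode of 6PGDKO, again with no other member.

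Kit was spread across the cell classes of both libraries. Outside the high barcodes it gave 525 UMIs in 321 WT barcodes and 735 UMIs in 400 6PGDKO barcodes, 19.5 CPM (17.8 to 21.2) and 25.9 CPM (24.1 to 27.9). Only 8.24% of the Kit UMIs of 6PGDKO lay in the high barcodes, against 97.3% or more for each of the other 9 genes. The level in the high barcodes was 580 CPM, 22.4 times that of the other 6PGDKO barcodes.

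By class the Kit level was highest in the epithelial class, at 79.6 CPM (61.8 to 101) in WT and 58.4 CPM (46.0 to 73.1) in 6PGDKO. Dendritic cells (DCs) followed with 53.5 (42.0 to 67.2) and 50.8 (41.8 to 61.1), and NK cells and ILCs with 39.2 (26.5 to 56.0) and 47.7 (33.9 to 65.2). The T cell class as named had 27.5 and 37.3 CPM and monocytes 31.5 and 28.5. With the unnamed Cd8b1 and Tcrg-C2 clusters included, T cells had 20.2 CPM (17.5 to 23.3) and 28.6 CPM (24.8 to 32.9). Macrophages had 9.32 (7.46 to 11.5) and 11.8 (9.79 to 14), B cells had 3.03 and 0, and neutrophils had 0 in both. Neighbours in this order of named classes overlapped within their counting intervals in at least 1 library, except macrophages, whose intervals lay below those of monocytes and T cells in both, with or without the unnamed T cell clusters. After thinning to 2000 UMIs the share of barcodes with a Kit UMI was 16% of WT and 5.93% of 6PGDKO DCs, although their CPM differed little, so no order is read from that share.

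Within classes Kit was uneven. Among DCs the cluster led by Xcr1 and Clec9a, genes of conventional type 1 DCs, had 96.9 CPM (73.6 to 125) in WT and 65.4 CPM (50.4 to 83.5) in 6PGDKO, and the cluster led by Fscn1 and Ccl22 had 20.4 (11.7 to 33.2) and 39.1 (28.8 to 51.9). Among T cells the cluster led by Cd4 and Tnfsf8 had 61.6 (47.3 to 78.8) in WT and 71.4 (54.1 to 92.5) in 6PGDKO. That led by Foxp3, the regulatory T cell factor, had 53.2 (42.1 to 66.3) and 44.5 (34.2 to 56.9), and the cycling cluster led by Pclaf and Ccna2 had 20.5 (14.1 to 28.8) and 24.5 (18 to 32.6). Kit was lower in the cluster led by Lef1 and Tcf7, genes of naive-like cells, at 1.86 (0.506 to 4.75) and 9.56 (1.16 to 34.6), and in the Cd8b1 and Ccl5 cluster, at 2.42 (0.973 to 4.99) and 1.59 (0.328 to 4.65).

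The log2 ratio of 6PGDKO to WT for Kit was 0.44 (0.13 to 0.75) in the T cell class and 0.50 (0.21 to 0.79) with the unnamed T cell clusters. Within single clusters it was 0.21 (−0.33 to 0.75) for Cd4 and Tnfsf8, −0.26 (−0.76 to 0.24) for Foxp3, 0.26 (−0.41 to 0.95) for Pclaf and Ccna2, and 0.51 (−0.63 to 1.79) for Tcrg-C2 and Xcl1. It was 2.37 (−1.10 to 5.17) for Lef1 and Tcf7 and −0.61 (−3.19 to 1.53) for Cd8b1 and Ccl5, so each of these intervals included 0. The Lef1 and Tcf7 cluster held 467 barcodes in WT and 52 in 6PGDKO, and the part of these numbers in the class ratio was not tested. The whole-library log2 ratio of Kit outside the high barcodes was 0.41 (0.25 to 0.58). It was −0.08 (−0.51 to 0.37) in DCs, −0.15 (−0.67 to 0.40) in monocytes and 0.34 (−0.07 to 0.75) in macrophages, and these intervals included 0. In the epithelial class it was −0.45 (−0.94 to 0.05) and in NK cells and ILCs 0.28 (−0.44 to 1.02).

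Clusters that met no class name held Kit at 8.77 CPM in WT and 21.9 CPM in 6PGDKO, a log2 ratio of 1.32 (0.77 to 1.89) over 3 clusters of unlike level and unequal share in the libraries. The Cd8b1 and Ccl5 cluster, at 2.42 and 1.59 CPM, made up 463 of the 612 WT and 304 of the 513 6PGDKO barcodes. The Tcrg-C2 and Xcl1 cluster had 35.9 CPM (16.4 to 68.2) in 46 WT and 51.2 CPM (33.4 to 75.0) in 62 6PGDKO barcodes. The cluster led by Epcam and Cd207, genes known from Langerhans cells, had 17.6 CPM (11.2 to 26.4) in 103 WT barcodes and 33.3 CPM (25.9 to 42.3) in 147 6PGDKO barcodes. Within the epithelial class, 62 of the 68 WT Kit UMIs and 63 of the 76 6PGDKO UMIs lay in the cluster led by Krt14 and Krt8, in 11 of its 28 WT and 13 of its 46 6PGDKO barcodes. Kit in the epithelial class was thus held by a minority of barcodes, up to 19 UMIs in WT and 16 in 6PGDKO, which are the highest member sums outside the high barcodes.

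**Figure D4:**
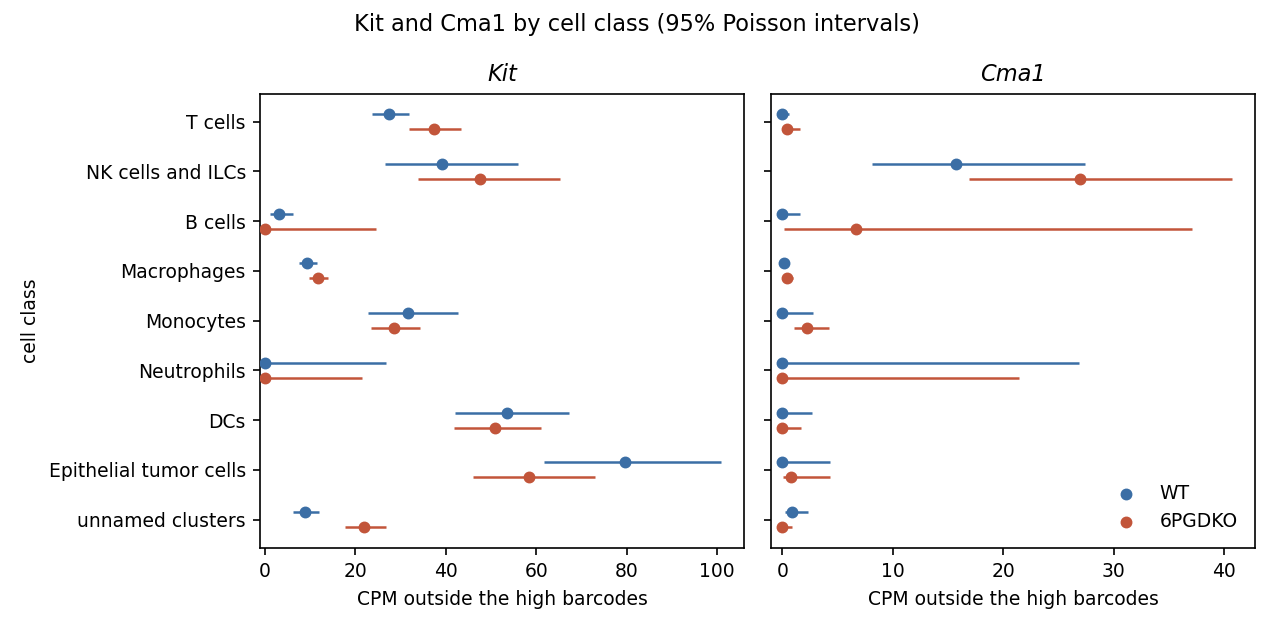
Level of Kit (left) and Cma1 (right) in CPM outside the high barcodes by cell class, with WT in blue, 6PGDKO in red and bars giving 95% Poisson intervals on linear axes from 0. Kit is highest in DCs and in the class labelled epithelial tumor cells in both libraries, and Cma1 reaches 15.7 and 26.9 CPM in NK cells and ILCs.

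Members were rarely found together outside the high barcodes. At least 2 of the 10 genes were detected in 3 other WT barcodes and 12 other 6PGDKO barcodes, and with Kit set aside in 1 and 1. The WT exception was the barcode with Cpa3 and Fcer1a described above, and the 6PGDKO exception held 1 UMI each of Mcpt1 and Mcpt4. Cma1 and Kit were found together in 5 other 6PGDKO barcodes. Every pair of members was found together in at least 3 high barcodes.

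Summed over all kept barcodes, the 10 genes had 21 CPM in WT and 388 CPM in 6PGDKO, a log2 ratio of 4.21 (4.08 to 4.33). These ratios follow from the 16 barcodes that chose the genes, and they are given as a description. The log2 ratio was 8.56 for Mcpt2, 8.37 for Tpsb2, 8.08 for Mcpt4, 7.62 for Tph1, 7.12 for Cpa3, 6.34 for Cma1, 2.73 for Fcer1a and 0.53 for Kit. Mcpt1 was at least 479-fold and Ms4a2 at least 10.1-fold higher, against a floor of 3 counts in WT. In all, 9 of the 10 members were at least 2-fold higher, beside 4.43% of the 15733 genes with at least 10 UMIs in the libraries together, and the median log2 ratio was 7.37 for the members, with Mcpt1 and Ms4a2 at their bounds, and 0.07 for all genes. Without the high barcodes 3 members reached 10 UMIs, Mcpt2, Cma1 and Kit, of which Cma1 was at least 2-fold higher, beside 4.21% of 15706 genes. That call rested on the single barcode with 9 Cma1 UMIs, without which Cma1 was 1.68-fold higher, a log2 ratio of 0.75 (−0.16 to 1.70). The median of the 3 members was 0.41, beside 0.07 for all genes.

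Further mast cell genes were read in the same 16 barcodes, which had 113806 UMIs in all. Of 34 such genes, 29 had a UMI there. A ratio was formed for the genes with at least 10 UMIs in the kept 6PGDKO barcodes, also 29 but a different set. That set includes Enpp3 and Lif, at 0 in the high barcodes, and leaves out Mrgprb2 and Ctsg. Of the genes with a ratio, 20 were at least 2-fold higher in the high than in the other barcodes, beside 8.26% of 14479 genes. The median log2 ratio was 3.06 for the list and −1.9 for all genes, of which 6774 had no UMI in the high barcodes.

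Some of these genes were nearly as restricted as the members. Tpsab1, which RefSeq lists as a transcribed pseudogene in this assembly, had 131 UMIs in 16 of 16 high barcodes, 97.8% of the library's total, and 1 UMI in WT. Gata2, a transcription factor of mast cells and basophils, had 25 UMIs in 13 of 16, 83.3% of the 6PGDKO total. WT had 23 Gata2 UMIs, 19 of them in the barcode with basophil genes described above. Cyp11a1, the side-chain cleavage enzyme of steroid synthesis, had 32 UMIs in 14 of 16, 88.9% of the 6PGDKO total. WT had 8 Cyp11a1 UMIs, 5 of them in that WT barcode. Rgs13 had 14 UMIs in 7 of 16, 73.7% of the 6PGDKO total, and 46 UMIs in WT. Hdc, which makes histamine, had 63 UMIs in 11 of 16 and a log2 ratio of 4.78 (4.38 to 5.16), with 9.94% of its UMIs in them. Gata1, Enpp3, Cma2, Mcpt9 and Lif had 0 UMIs in the high barcodes.

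Genes of mediators, receptors and granule matrix were also present. Srgn, which encodes serglycin, had 351 UMIs in 16 of 16, with a log2 ratio of 1.00 (0.85 to 1.15). Fcer1g, the shared gamma chain of Fc receptors, had 325 UMIs in 16 of 16, and Alox5ap of leukotriene synthesis had 144 in 15 of 16. Ltc4s, of the same synthesis, had 3 UMIs in 1 barcode and a log2 ratio of −0.98 (−3.26 to 0.57). The ratio was 0.55 (−0.14 to 1.17) for Hpgds and 0.12 (−1.32 to 1.25) for Ptgs1. It was 0.41 (−0.46 to 1.16) for Itgb7 and 0.24 (−2.81 to 2.10) for Csf2. These intervals included 0, whereas 20 of the 29 listed genes with a ratio had intervals above 0. Il1rl1, the receptor of IL-33, had 63 UMIs in 13 of 16 and a log2 ratio of 3.14 (2.75 to 3.5). Il13 had 20 UMIs in 5 barcodes, Il4 had 12 in 5 and Il6 had 14 in 5, whereas Tnf had 24 in 11. Gzmb and Itgae had intervals below 0, with log2 ratios of −1.63 (−2.46 to −0.90) and −1.66 (−3.28 to −0.43).

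Of the basophil genes, Mcpt8 had 0 UMIs in the high barcodes and Prss34 had 2 in barcode 14 alone. Cd200r3, which mast cells also express, had 26 UMIs in 9 of 16, and 20 UMIs in WT. Csf1 had 47 UMIs in 6 of 16, of which 27 lay in barcode 14. Mcpt8 was thus at 0 in barcodes that all held Mcpt4.

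**Figure D5:**
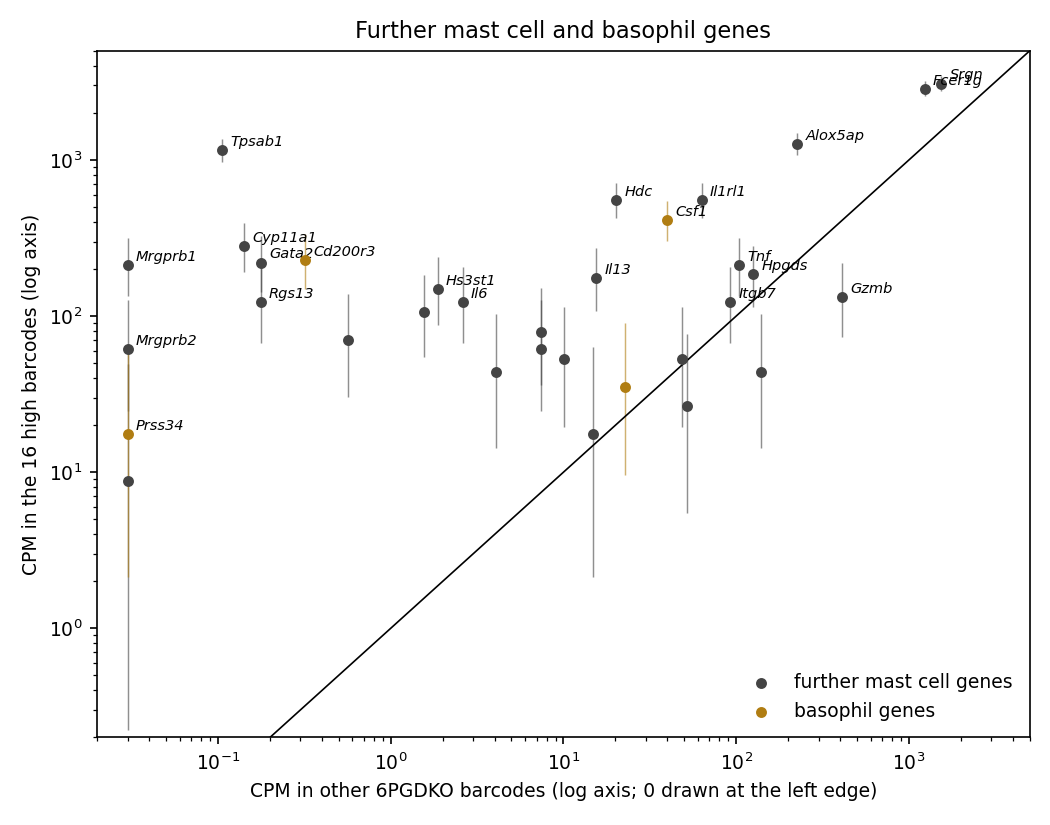
Level in CPM of the further mast cell genes (grey) and basophil genes (ochre) in the 16 high barcodes (y axis, with 95% Poisson intervals) and in the other 6PGDKO barcodes (x axis), both on log axes; the line marks equal levels, and genes at 0 elsewhere are drawn at the left edge. Tpsab1, Cyp11a1, Gata2, Rgs13 and Cd200r3 lie far above the line, while Gzmb lies below it. Gata1, Enpp3, Cma2, Mcpt9, Lif and Mcpt8 had no UMI in the high barcodes and are not drawn.

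Outside these lists, genes were ranked by the ratio of their level in high to that in other 6PGDKO barcodes, among 408 genes with a UMI in at least 8 high barcodes and at least 30 UMIs in them. Speer4e led with 51 UMIs in 10 of 16 and none in any other barcode of either library. Cd34, a progenitor and mast cell sialomucin, had 37 UMIs in 14 of 16 and a ratio of 144. The monocyte chemokines Ccl7 and Ccl2 had 301 and 200 UMIs in 14 and 15 of 16, with ratios of 66.2 and 12.6, and 35.5% of the Ccl7 UMIs lay in a single barcode. Serpinb1a, a protease inhibitor, had 104 UMIs in 15 of 16 with a ratio of 50.6. Cd52, a leukocyte surface glycoprotein, had 2416 UMIs in 15 of 16 and a ratio of 9.05. By correlation with the summed members over the 2798 kept 6PGDKO barcodes, Tpsab1 (r = 0.76), Cyp11a1 (0.69), Atp8b5 (0.67), Gata2 (0.65) and Speer4e (0.61) were the most alike, values that rest on the contrast of the 16 with the rest.

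The ligands were read in the other cells. Kitl, which encodes stem cell factor, had no UMI in the high barcodes and was concentrated in the epithelial class, with 67.7% of its WT and 81.0% of its 6PGDKO UMIs. Its level there was 101 CPM (80.5 to 124) in WT and 144 CPM (124 to 166) in 6PGDKO. Il33 lay in the same class, with 118 CPM (96.3 to 144) and 108 CPM (91.2 to 128). Il3 had 7 and 4 UMIs in the libraries. The sort was on CD45, so epithelial cells were present only as far as they passed it.

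The high barcodes lay within the depth range of the other cells. They had 1664 to 13746 UMIs with a median of 6693, beside a median of 7931 for the other 6PGDKO barcodes, and 645 to 2897 genes with a median of 1741.5. Their mitochondrial share was 2.33 to 8.65% with a median of 4.2%, beside a median of 2.36%. The count of their own multiplexing oligonucleotide was 5.81 to 47.1 times that of the WT oligonucleotide, with a median of 11.8, beside a median of 16.7 in the other 6PGDKO barcodes. The libraries had been separated by these oligonucleotides, so this excess was set in advance and is no check of genotype. The lowest value in the other 6PGDKO barcodes was 3.51.

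Markers of other cells were low in most of the 16. Neutrophil, epithelial and fibroblast markers had 0 UMIs. B cell markers gave 2 UMIs and NK and ILC markers 5. Endothelial markers gave 5 UMIs in 3 barcodes, 43.9 CPM beside 19.4 CPM in the other 6PGDKO barcodes. Macrophage markers, 5 of 6 of them detected, gave 130 UMIs in 11 barcodes, of which 98 lay in barcode 9. T cell markers, also 5 of 6 detected, gave 31 UMIs in 5 barcodes, of which 27 lay in barcode 4. Monocyte markers gave 26 UMIs in barcode 3, and DC markers gave 15 in barcode 4 and 8 in barcode 3. Plasmacytoid DC markers gave 59 UMIs in 13 barcodes with Siglech and Ccr9 at 0. Barcodes 3, 4 and 9 were also the deepest of the 16, with 13746, 12675 and 12545 UMIs. Their content of a second cell was not tested, and no doublet caller was run.

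Pgd had 1 UMI in the 16 high barcodes, 8.79 CPM (0.222 to 49.0), beside 29.8 CPM in the other 6PGDKO barcodes and 57.3 CPM in WT. Lyz2, from whose locus the Cre is made, also had 1 UMI, 8.79 CPM (0.222 to 49.0). The level was 14.6 CPM in the other 6PGDKO barcodes and 1280 CPM in WT. Lyz2 was low across the 6PGDKO library, so this count does not show whether the high barcodes use the locus. At this depth the interval of Pgd included the level of the other 6PGDKO barcodes and did not reach that of WT. No WT barcode was high, so no Pgd level of WT mast cells was measured.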

How the data were processed

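Live CD45+ cells from pooled tumor suspensions were sequenced on the 10x Genomics platform and separated by multiplexing oligonucleotides. The authors deposited filtered matrices of raw UMI counts per gene and barcode, made with Cell Ranger 6.1.2 on mm10 per the labels and the submitters' processing notes. Their cell filters had not been applied to the deposited counts. A barcode was kept here if it had 500 to 7500 detected genes and no more than 15% of its UMIs from mitochondrial genes. This left more barcodes than the study analysed. The members and all gene lists were chosen with earlier results of these data known. A high barcode held at least 20 UMIs of the 10 genes and at least 4 of them. Sums were given exact Poisson intervals, shares Clopper-Pearson intervals and ratios exact conditional intervals, all at 95%, in Python 3.11.15 with scipy 1.17.1. The intervals cover counting error only, and a count of 0 was limited at 3 counts. Genes entered the comparisons over all genes at 10 UMIs or more in sum, and ratios of named genes were also formed below that. Cell classes came from clustering in Seurat 5.3.0 (R 4.3.3; 2000 variable genes, 30 components, resolution 0.8) and markers listed for each class. Doublets were not called. Named genes were the 10 members, lists of further mast cell, basophil and ligand genes, Pgd and Lyz2, the 15 other genes of highest ratio, and the 5 most correlated genes. Kit and Cma1 clusters and the set of 5 proteases were singled out after their values were seen. Sequences were read from RefSeq tables and compared with biopython 1.88. The ratio code was tested on simulated counts. Alternatives were other rules for a high barcode, all deposited barcodes, no high barcodes, median-ratio scaling, thinning to 2000 UMIs and resolution 1.6. Leaving out B cell clusters, barcodes under 2000 UMIs or the barcode of most Cma1 UMIs, and adding 2 unnamed clusters to the T cells, were added after seeing the data.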

Additional observations from a re-analysis of the deposited data

How the results depend on the processing

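Of 101 values recomputed under an alternative, 86 kept their direction and stayed within the counting interval of the reported value or, for counts, within 1.5 times of it (for log2 bounds, within 0.1), 13 moved and 2 changed sign. The number of high barcodes was 0 in WT under every rule and 16 in 6PGDKO under every rule, except 15 among barcodes of at least 2000 UMIs. These rules read the same genes that chose the cells. The gap between high and other barcodes left the counts almost no room to differ. Their agreement is therefore no support, and these values are among the 86. The looser and stricter rules picked the same 16 barcodes. Levels outside the high barcodes under the looser rule, and counts of other genes under the stricter rule, therefore could not differ either. Without the high barcodes, the log2 ratio of 6PGDKO to WT was 0.42 (0.27 to 0.58) for all 10 genes. The values that changed sign were −0.36 (−1.81 to 1.05) for Mcpt2 and −0.072 (−2.50 to 2.35) for Mcpt4. The high barcodes held nearly all UMIs of the proteases. The ratio outside them was 1.13 (0.27 to 2.04) for Cma1, or 0.75 (−0.16 to 1.70) without the barcode of most Cma1 UMIs. It was 0.34 (−2.22 to 3.11) for Tpsb2 and 2.25 (−0.91 to 7.81) for Tph1. The intervals of Mcpt2, Mcpt4, Tpsb2 and Tph1 included 0, and the last 3 had at most 5 UMIs in either library there. After thinning to 2000 UMIs, the share of barcodes with a Kit UMI outside the high barcodes was 3.21% in WT (9% before) and 4.7% in 6PGDKO (14.4% before). The share with a Cma1 UMI among 6PGDKO NK cells and ILCs was then 4.31%. Median-ratio scaling shifted all log2 ratios by the same 0.07, so their order could not change. No paired analysis was possible because each genotype was 1 library, and for the same reason no replicate could be left out. With 16 barcodes from 1 pool, the share of mast cells in single tumors was not measured.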
